A study of Homo sapiens with 18 samples.

Results

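The comparison described here sets NCI-H211 cells that carried the L191A form of POU2F3 against NCI-H211 cells that carried the wild-type form (WT), both after infection with the control guide sgRosa. NCI-H211 is an established human small cell lung cancer line of the tuft-cell-like subtype, and the cells used also expressed Cas9. L191A names a leucine-to-alanine substitution in the POU2F3 protein. Each cDNA was CRISPR-resistant and stably expressed, and RNA was isolated 5 days after infection with guide lentivirus. The members were the 3 L191A sgRosa libraries and the 3 WT sgRosa libraries, 6 of the 18 libraries of the series, chosen by their labels. The 3 sgRosa libraries of cells with an empty vector, and L191A and WT cells infected with sgPOU2F3, a guide against endogenous POU2F3, are used for reference only. Because sgRosa does not target POU2F3, L191A and WT cells here kept their own POU2F3 gene beside the cDNA. Replicates were separate infections of 1 stable line per construct, so the effect of the construct and that of the line cannot be told apart. The labels do not say whether a line was a clone or a pool.

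Tuft cells are chemosensory epithelial cells that sense their surroundings with the machinery of taste. A receptor activates a G protein, phospholipase C then releases calcium from internal stores, and a calcium-gated channel depolarises the cell. POU2F3 binds the octamer DNA motif and is required for tuft cells, and it works with the coactivators POU2AF2 and POU2AF3, which bind to octamer factors on DNA. The question posed by the series title is how POU2F3 recruits a coactivator on DNA. The L191A cDNA carries a change in POU2F3 itself.

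The deposited values were TPM, a transcript's share of the library corrected for its length, whose total is fixed in each library, so depth is unknown and no counting interval can be given. Library sizes were therefore set equal by the median ratio of each library to the average library, and levels below are scaled TPM unless said otherwise. L191A replicate 1 stood apart from the other 5 libraries. Its median gene was at 7.08 TPM as deposited, against 19.25 TPM in each of L191A replicates 2 and 3 and 23.42 to 26.48 TPM in WT libraries. Ribosomal protein genes took 37.56% of its TPM, against 24% and 21.37% in the other L191A libraries and 17.44% to 22.33% in WT libraries. Its values also leaned on transcript length. In the tenth of genes with the shortest transcripts its median log2 difference from the WT mean was 1.77, and in the tenth with the longest it was −1.07. In L191A replicates 2 and 3 these medians were 0.31 and 0.31 for the shortest and −0.16 and −0.16 for the longest, a much smaller lean. Slopes per doubling of transcript length were also taken against the mean of the series without L191A sgRosa replicate 1 and WT sgPOU2F3 replicate 1. They were −0.66, −0.029 and −0.024 log2 in L191A replicates 1 to 3, and 0.136, 0.069 and 0.07 in WT replicates 1 to 3. Outside replicate 1, the lean between the groups thus lay mostly in the WT libraries. Calls rest on a fit with all 3 L191A libraries and a fit without replicate 1. A single log2 difference or p is from the fit without replicate 1 unless said otherwise, and "called" below means an adjusted p under 0.05 with the same direction in both fits. L191A against WT with sgPOU2F3 is the exception. Its calls, log2 differences and p are from the fit of all 18 libraries, unless said otherwise.

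**Figure D1:**
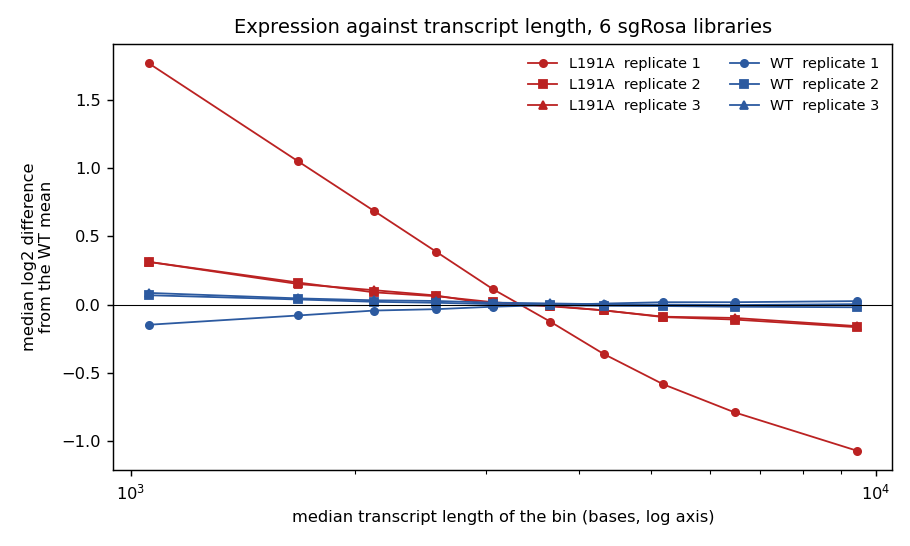
Median log2 difference of scaled TPM from the WT mean (y axis) for tested genes in 10 bins of transcript length (x axis, bases, log axis), 1 line per sgRosa library, L191A in red and WT in blue. L191A replicate 1 runs between 1.77 and −1.07, L191A replicates 2 and 3 between 0.31 and −0.16, and the WT libraries between −0.15 and 0.087.

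Tested were 13050 genes, whose average over the 6 libraries was 1 TPM or more. Of these, 2680 (20.5%) were higher and 2545 (19.5%) lower in L191A than in WT cells in both fits (limma, Benjamini-Hochberg adjusted). With all 3 L191A libraries the counts were 3379 (25.9%) higher and 3196 (24.5%) lower, and without replicate 1 they were 3205 (24.6%) and 3072 (23.5%). No gene was called in opposite directions by the 2 fits. A change of at least 2-fold in both fits was reached by 429 genes (3.29%) higher and 633 genes (4.85%) lower. Of the 5225 genes called, 5111 also had no overlap between the 3 L191A and the 3 WT libraries, beside 58.7% of all genes tested that did not overlap. On TPM as deposited, without scaling, the median difference over all genes moved to −0.68 with all libraries and −0.31 without replicate 1, and the split became 870 higher and 4262 lower (17% higher, against 51.3% after scaling). A fit of these 6 libraries alone called 1004 genes higher and 1569 lower with replicate 1 kept, and the same counts in both fits. Without replicate 1 that fit called 3852 higher and 3872 lower. Counts with single libraries left out are given at the end.

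The octamer factors were read first. POU2F3 (chromosome 11, 120236640 to 120319944, plus strand, GRCh38) was at 345.1, 1059 and 836.2 scaled TPM in L191A cells, replicates 1 to 3, against 1240, 1570 and 1495 in WT cells. The groups did not overlap, and the log2 difference was −0.60 (SE 0.17, limma adjusted p = 0.0102) without replicate 1 and −1.08 (adjusted p = 0.00841) with it. Empty-vector cells held 606, 610.4 and 657.7 scaled TPM. The transcript set behind these values is not given in the sources used here, so reads from the cDNA and from the cell's own gene cannot be told apart. The total POU2F3 transcript was thus lower in L191A than in WT cells, and the part of this in the differences below was not tested.

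Among the coactivators, C11orf53, the gene of POU2AF2, was at 593.6, 409.2 and 381.2 scaled TPM in L191A cells and at 525.2, 509.9 and 501.2 in WT cells. L191A replicate 1 lay above all WT libraries and the other two L191A libraries below them. Its log2 difference was −0.37 without replicate 1 (limma adjusted p = 0.032) and −0.18 with it (adjusted p = 0.397), so it was not called. COLCA2, the gene of POU2AF3, was at 7.83, 9.53 and 6.52 scaled TPM in L191A cells, against 8.56, 10.86 and 12.27 in WT cells (log2 difference −0.36, limma adjusted p = 0.105, without replicate 1). POU2F1, a broadly expressed octamer factor, was not called either (log2 difference −0.13, limma adjusted p = 0.457, without replicate 1). POU2F2 and POU2AF1, the octamer factor and coactivator of lymphoid cells, were below the filter on low values.

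The genes that fell furthest included receptors, calcium-signalling genes and taste genes. SCIN, which encodes the actin-severing protein scinderin (chromosome 7, 12570577 to 12660179, plus strand, GRCh38), had 1.37, 1.94 and 1.39 scaled TPM in L191A cells, against 270.7, 273.4 and 248.8 in WT cells. The level without L191A replicate 1 was 159-fold lower in L191A cells, with a log2 difference of −6.65 (SE 0.11, limma adjusted p = 6.97e-16). Empty-vector cells had 9.92, 8.52 and 10.1 scaled TPM, below WT and above L191A. CNR1, the cannabinoid receptor CB1, was at 0.0579, 0.255 and 0.131 scaled TPM in L191A cells and at 15.2, 16.7 and 17.7 in WT cells. AGTR1, the angiotensin II receptor, was at 5.22, 3.86 and 3.59 scaled TPM in L191A cells and at 62.1, 60.4 and 56.2 in WT cells. RAB27B, a small GTPase of vesicle secretion, was at 1.67, 2.25 and 2.29 scaled TPM in L191A cells and at 32.7, 38.2 and 39.4 in WT cells. These 3 genes were low in empty-vector cells too, where CNR1 was at 0.835 to 0.981, AGTR1 at 5.47 to 6.86 and RAB27B at 1.58 to 1.71 scaled TPM.

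A second pattern within the largest falls had both empty-vector and WT cells high. PLCB2, the phospholipase C of taste signalling (chromosome 15, 40278176 to 40307935, minus strand), was at 32.9, 39.7 and 38.5 scaled TPM in L191A cells, against 622.8, 597.1 and 630.7 in WT cells. This was 15.8-fold lower in L191A cells without replicate 1 (log2 difference −3.95, SE 0.17, limma adjusted p = 2.23e-10), and empty-vector cells held 318.1, 299 and 350. ATP2A3, the calcium pump SERCA3, was at 6.57, 10.7 and 8.6 scaled TPM in L191A cells, against 170, 154.4 and 169.8 in WT cells, with 100.3 to 132.6 in empty-vector cells. PTGS2, the inducible cyclooxygenase, was at 1.48, 2.5 and 1.66 scaled TPM in L191A cells and at 35.8, 27.2 and 22.2 in WT cells. For PTGS2 the empty-vector libraries were highest, at 54.3 to 63 scaled TPM. MYMX, which encodes the muscle fusion factor myomixer, was at 1.69, 1.69 and 0.492 scaled TPM in L191A cells, against 14.1, 17.7 and 18.2 in WT cells and 12.1 to 12.6 in empty-vector cells. VWDE, a von Willebrand factor domain gene, was outside this pattern, with empty-vector cells in between, at 54.5 to 64.8 scaled TPM. VWDE was at 10.7, 11.1 and 9.37 in L191A cells, against 208.6, 223 and 224.6 in WT cells. HIST1H4K, a histone H4 gene whose near-identical copies can share reads, was listed at 0 in all L191A libraries and at 27.1, 8.87 and 52 in WT libraries, so its call is uncertain. Over the 12 largest falls the log2 differences ranged from −6.65 to −3.07. Of these 12 genes, 11 were also called lower with sgPOU2F3, beside 11.6% of all genes tested. HIST1H4K was the exception.

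**Figure D2:**
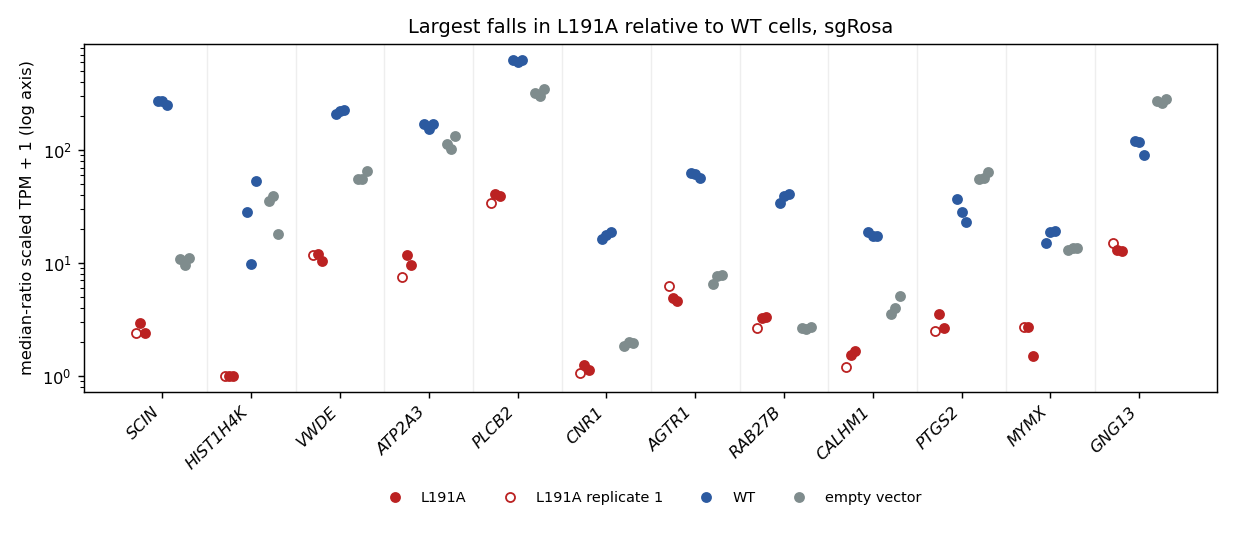
Scaled TPM + 1 (y axis, log axis) of the 12 largest falls (x axis) in each sgRosa library, L191A in red with replicate 1 as an open circle, WT in blue and empty vector in grey. The genes were chosen so that the 3 L191A libraries lie below the 3 WT libraries. For SCIN, VWDE, CNR1, AGTR1, RAB27B and CALHM1 the empty-vector libraries are also far below WT.

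Taste signalling fell at most of its steps. Of 17 genes on the list, 14 were tested, 12 were lower and none was higher, beside 19.5% lower and 20.5% higher over all genes. GNB1 and ITPR3 were not called. The list had a median log2 difference of −2.16 with all libraries and −2.04 without replicate 1, beside −0.03 and −0.01 over all genes. The receptor subunit TAS1R3, shared by sweet and umami receptors, was at 6.09, 10.6 and 10.5 scaled TPM in L191A cells, against 77.5, 83.9 and 95.3 in WT cells. Of the G protein, the alpha subunit gustducin (GNAT3) was at 152.5, 277.7 and 244.3 in L191A cells, against 534.5, 528.1 and 510.2 in WT cells. The gamma subunit GNG13 fell further, to 14.2, 12 and 11.8 scaled TPM in L191A cells, against 118.6, 117 and 89.8 in WT cells. The beta subunit GNB3 was at 6.26, 7.94 and 7.48 in L191A cells and at 19.2, 22.4 and 21.8 in WT cells, so GNAT3, GNG13 and GNB3 were all lower.

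Downstream of PLCB2, the calcium-gated channel TRPM5 was at 62.2, 49.7 and 45 scaled TPM in L191A cells, against 307.7, 301.3 and 344.7 in WT cells (log2 difference −2.72, SE 0.26, limma adjusted p = 1.29e-06, without replicate 1). Its relative TRPM4 was at 1.83, 6.03 and 4.45 in L191A cells and at 15.2, 13.9 and 15.6 in WT cells. The subunits of the ATP-release channel of taste cells were near 0 in L191A cells. CALHM1 was at 0.194, 0.531 and 0.666 scaled TPM in L191A cells and at 17.9, 16.3 and 16.4 in WT cells, and CALHM3 at 0.292, 0.0922 and 0.0917 against 7.58, 8.8 and 8.12. The regulators of G-protein signalling changed less: RGS21 had a log2 difference of −1.28 and RGS13 of −0.48 without replicate 1, and both were called. ITPR3, the calcium release channel that PLCB2 activates, had a log2 difference of −0.128 without replicate 1 and did not pass the test (limma).

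Other tuft-cell genes moved mostly the same way. Of 35 tuft markers tested, which include the taste genes above, 22 were lower and 2 higher, beside 19.5% and 20.5% of all genes. Their median log2 difference was −1.19 with all libraries and −1.01 without replicate 1. DCLK1, a kinase widely used as a tuft marker in mouse, was at 1.07, 2.48 and 2.02 scaled TPM in L191A cells, against 10.7, 10.6 and 9.93 in WT cells. SH2D6, an adaptor-type protein of tuft cells, was at 5.86, 8.27 and 3.86 in L191A cells and at 31.1, 32.8 and 36.5 in WT cells. CHAT, which makes acetylcholine, was at 1.26, 38.1 and 30.4 in L191A cells, so replicate 1 stood far below the others, against 71.5, 69.6 and 75.7 in WT cells. AVIL, the actin-binding protein advillin, stayed high at 284.3, 355 and 334.3 scaled TPM in L191A cells, against 512.8, 546.9 and 585.3 in WT cells. All 4 genes were called lower.

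The tuft markers that rose were BMX and FOXI1. BMX, a Tec-family tyrosine kinase, was at 437.7, 533.8 and 525.7 scaled TPM in L191A cells, against 182.2, 217.3 and 233 in WT cells. FOXI1, the transcription factor of ionocytes, was at 104.8, 83.9 and 82.4 in L191A cells, against 11.1, 12 and 11.8 in WT cells (log2 difference 2.74, SE 0.09, limma adjusted p = 5.81e-12, without replicate 1). For both genes the WT libraries were the low ones, since empty-vector cells held 479.9 to 538.1 scaled TPM of BMX and 54.3 to 64.6 of FOXI1. MYB, a factor of progenitor cells, did likewise, with 77.5, 71.8 and 80.2 in L191A cells, against 27.4, 28.8 and 31 in WT cells and 117.3 to 123.3 in empty-vector cells. Among 10 tuft transcription factors and coactivators tested, MYB was the 1 called higher and SPIB, TCF7 and ZFHX3 were lower. Over all genes 20.5% were higher and 19.5% lower. The lower count was 1 without L191A replicate 3, 2 in the fit of the 6 libraries alone, and 5 after quantile normalization or removal of the length trend. SPIB, an ETS factor, was at 11.1, 8.49 and 8.39 scaled TPM in L191A cells and at 35.9, 35.8 and 39 in WT cells. ASCL2, GFI1B, SOX9 and RUNX1 were not called.

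Eicosanoid synthesis, through which tuft cells make lipid mediators, had genes called in both directions. The phospholipase PLA2G4A, which frees arachidonic acid, was at 2.26, 3.33 and 2.93 scaled TPM in L191A cells, against 10.3, 12 and 12 in WT cells. The constitutive cyclooxygenase PTGS1 was at 3.47, 3.39 and 3.51 in L191A cells, against 14.2, 12.6 and 12.6 in WT cells. With PTGS2 and the lipoxygenases ALOX5 and ALOX12, 5 of 11 genes tested were lower, beside 19.5% of all genes. PTGES2 and PTGES3, later enzymes of prostaglandin E2 synthesis, were the 2 of 11 called higher, beside 20.5% of all genes, by log2 differences of 0.61 and 0.45 without replicate 1. Without L191A replicate 3, and in the fit of the 6 libraries alone, 3 genes of the list were lower. The higher count was 1 without WT replicate 2 or 3 or L191A replicate 2 or 3, and 0 in the fit of the 6 libraries alone. PTGES3 turned to −0.13 with all libraries under quantile normalization.

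Bitter receptors (the TAS2R family) are G protein-coupled receptors upstream of gustducin, and their genes sit in clusters on chromosomes 7 and 12 whose members are similar in sequence, so reads may be shared among them. Of 25 genes, 17 were tested, 11 were lower, none was higher and 6 were not called, beside 19.5% lower and 20.5% higher over all genes. The median log2 difference was −1.19 with all libraries and −0.93 without replicate 1. The lower count was 11 with all libraries and 14 without replicate 1. In both fits it was 14 after removal of the length trend and 7 when the 6 libraries were fitted alone. TAS2R38 was the most abundant, at 15.3, 184 and 162.8 scaled TPM in L191A cells, against 392, 499.8 and 538.6 in WT cells. TAS2R42 was at 32.7, 144.8 and 116 in L191A cells and at 220.2, 203.6 and 196.2 in WT cells. In both genes L191A replicate 1 was several-fold below replicates 2 and 3. TAS2R5 was at 1.77, 13.2 and 11 in L191A cells, against 57.9, 55.2 and 57.4 in WT cells. TAS2R4 was at 3.81, 7.15 and 6.81 in L191A cells and at 36.2, 37.7 and 39.6 in WT cells. TAS2R13 was at 1.08, 0.969 and 1.63 scaled TPM in L191A cells and at 5.07, 6.37 and 6.91 in WT cells, and TAS2R60 at 0.211, 4.66 and 2.82 in L191A cells and at 16.1, 14.5 and 15.4 in WT cells. These 6 genes had no overlap between L191A and WT libraries, nor had the other bitter receptors called lower, beside 58.7% of all genes tested that did not overlap. In empty-vector cells TAS2R4 was at 3.11 to 7.37 scaled TPM, TAS2R5 at 11.25 to 12.98 and TAS2R42 at 113.7 to 136.1, all below WT cells. TAS2R13 was at 0.0822 to 0.364 there, below L191A cells too. TAS2R38, at 392.9 to 462.7, and TAS2R60, at 19.12 to 26.05, were above L191A cells in empty-vector cells.

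The promoters of bitter receptor genes often held the octamer ATGCAAAT, read on both strands. RefSeq promoters (GRCh38.p14), 250 bases before to 50 after the gene start, were at hand for 14 of the 17 genes tested, and 7 of the 14 (50%) held it, against 159 of 10519 (1.51%) over all tested genes with a promoter. Of the 7 with an octamer 4 were called lower, and of the 7 without one also 4. The promoters of the 4 that hold an octamer and were called lower are printed 5′ to 3′ along the strand of the gene, with the octamer in capitals (ATTTGCAT is its reverse complement). They are shown because they carry the letters that POU2F3 is known to bind. That of ELF3, an epithelial ETS factor that was called higher, is shown beside them.
TAS2R3, chr7:141763847-141764146, plus strand: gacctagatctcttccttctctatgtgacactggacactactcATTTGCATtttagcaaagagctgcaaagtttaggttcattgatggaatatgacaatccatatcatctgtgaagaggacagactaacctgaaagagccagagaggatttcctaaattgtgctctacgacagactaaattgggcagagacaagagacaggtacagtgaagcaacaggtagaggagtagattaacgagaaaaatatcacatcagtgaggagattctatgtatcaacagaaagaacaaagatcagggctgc
TAS2R5, chr7:141789967-141790266, plus strand: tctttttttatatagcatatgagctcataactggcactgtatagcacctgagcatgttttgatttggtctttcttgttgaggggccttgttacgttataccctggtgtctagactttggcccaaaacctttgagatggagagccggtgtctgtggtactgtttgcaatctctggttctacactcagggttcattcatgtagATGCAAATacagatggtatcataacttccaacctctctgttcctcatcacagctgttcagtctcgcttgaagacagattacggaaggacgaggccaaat
TAS2R13, chr12:10909513-10909812, minus strand: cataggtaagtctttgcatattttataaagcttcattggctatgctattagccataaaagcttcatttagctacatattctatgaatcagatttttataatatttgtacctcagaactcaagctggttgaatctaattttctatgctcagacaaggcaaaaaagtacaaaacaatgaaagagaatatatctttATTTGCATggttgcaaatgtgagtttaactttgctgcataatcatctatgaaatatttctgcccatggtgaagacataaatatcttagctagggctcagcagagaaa
TAS2R60, chr7:143443203-143443502, plus strand: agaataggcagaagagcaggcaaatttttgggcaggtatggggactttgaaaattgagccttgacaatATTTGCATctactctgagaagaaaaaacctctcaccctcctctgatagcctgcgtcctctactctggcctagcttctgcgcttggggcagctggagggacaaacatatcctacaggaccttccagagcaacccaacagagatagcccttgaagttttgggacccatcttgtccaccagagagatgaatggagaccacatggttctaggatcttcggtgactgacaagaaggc
ELF3, chr1:202010337-202010636, plus strand: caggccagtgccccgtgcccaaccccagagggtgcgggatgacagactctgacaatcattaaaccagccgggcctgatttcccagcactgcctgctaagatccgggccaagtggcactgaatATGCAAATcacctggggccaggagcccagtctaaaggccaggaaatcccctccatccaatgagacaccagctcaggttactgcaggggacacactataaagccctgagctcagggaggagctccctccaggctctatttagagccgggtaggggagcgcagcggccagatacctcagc
The octamer lay 207 bases before the gene start in TAS2R3, 49 in TAS2R5, 57 in TAS2R13, 182 in TAS2R60 and 128 in ELF3.

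Across all called genes, 36 of 1957 promoters of lower genes (1.84%) and 27 of 2257 promoters of higher genes (1.20%) held an octamer, near the 1.51% of all tested genes. Among genes that changed at least 2-fold in both fits it was 14 of 456 lower (3.07%) and 6 of 342 higher (1.75%). Of these 14 lower genes 3 were bitter receptors, TAS2R5, TAS2R13 and TAS2R60. None of 14 promoters of YAP and TAZ targets held an octamer. The letters TGANTCA, an AP-1 site, were in 5.56% of promoters of genes at least 2-fold higher and 4.28% of all, and GGAATG, a TEAD site, in 11.1% and 10.8%. A match or its lack in this window says nothing on binding.

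The genes that rose furthest included secreted and matrix proteins at low levels in WT cells. ERP27, an endoplasmic reticulum protein of the disulphide isomerase family (chromosome 12, 14914035 to 14939082, minus strand, GRCh38), was at 65.6, 70.4 and 42.5 scaled TPM in L191A cells, against 1.46, 0.487 and 1.07 in WT cells. The log2 difference was 4.83 (SE 0.26, limma adjusted p = 2.34e-09) without replicate 1. MGP, matrix Gla protein, an inhibitor of calcification, lies close to it and was at 81.7, 22.3 and 15.7 in L191A cells, against 0.191, 0.417 and 0.301 in WT cells. The collagenases MMP1 and MMP13 were at most 0.201 scaled TPM in WT cells. MMP1 was at 14.6, 8.16 and 11.3 in L191A cells, against 0.0805, 0.175 and 0.201 in WT cells, and MMP13 at 11.4, 6.53 and 13.8, against 0, 0.183 and 0.0396. PCOLCE, which aids collagen processing, was at 78.5, 52.6 and 50.6 in L191A cells and at 4.55, 4.95 and 4.99 in WT cells. KRT17, a keratin of basal and wounded epithelium, was at 56.5, 23.2 and 34.3 in L191A cells and at 1.86, 0.952 and 1.78 in WT cells.

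Several of the largest rises encode secreted proteins that bind growth factors. IGFBP5 was at 3.95, 15.1 and 18.8 scaled TPM in L191A cells, against 0.75, 0.977 and 1.16 in WT cells, with replicate 1 the lowest of its group. IGFBP3, which like IGFBP5 binds insulin-like growth factors, was at 47.1, 34.4 and 47.3 in L191A cells, against 4.6, 4.08 and 3.98 in WT cells. GREM1, an antagonist of bone morphogenetic proteins, was at 8.06, 8.59 and 12.6 in L191A cells, against 0.53, 0.303 and 0.384 in WT cells. SOSTDC1, an antagonist in the same pathway and of Wnt, was at 8.08, 10.8 and 10.7 in L191A cells, against 0.191, 0.482 and 0.474 in WT cells. PALMD, which encodes palmdelphin, was at 7.28, 10.4 and 6.68 in L191A cells, against 0.123, 0.18 and 0.234 in WT cells. The lack of overlap with WT libraries was part of the rule that chose these 12 genes. All 12 were also called higher with sgPOU2F3, as is read against the 9.96% of all genes given below. Empty-vector cells were low in each, with ERP27 at 0.383 to 0.5, MMP1 at 0.102 to 0.465 and IGFBP3 at 3.03 to 4.36 scaled TPM.

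**Figure D3:**
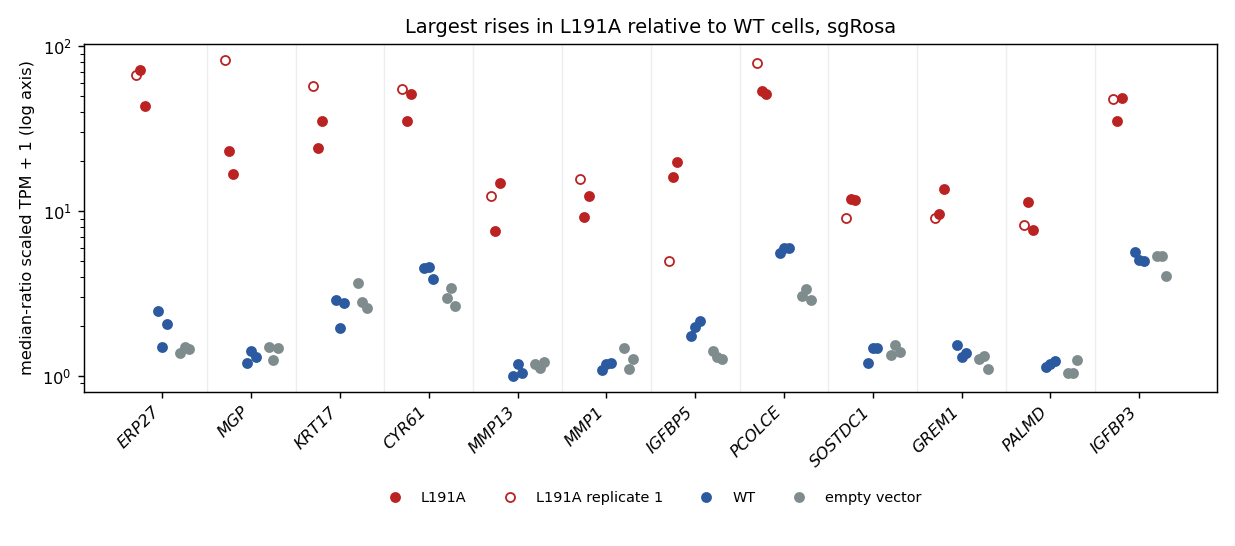
Scaled TPM + 1 (y axis, log axis) of the 12 largest rises (x axis) in each sgRosa library, L191A in red with replicate 1 as an open circle, WT in blue and empty vector in grey. The genes were chosen so that the 3 L191A libraries lie above the 3 WT libraries, and they lie above the empty-vector libraries too, as for ERP27, at 42.5 to 70.4 in L191A cells and 0.383 to 0.5 in empty-vector cells.

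YAP and TAZ are coactivators that work through TEAD factors and respond to cell shape and contact. Of 20 of their targets tested, 11 were higher and 4 lower, beside 20.5% and 19.5% of all genes, with a median log2 difference of 1.00 with all libraries and 0.95 without replicate 1. CYR61, a matrix-associated signalling protein and a standard readout of the pathway, was at 53.8, 34.3 and 50.3 scaled TPM in L191A cells, against 3.48, 3.59 and 2.87 in WT cells. ANKRD1, a nuclear ankyrin-repeat protein, was at 12.7, 7.36 and 10.8 in L191A cells and at 0.765, 0.734 and 0.641 in WT cells. AMOTL2, which restrains YAP in feedback, was at 6.04, 12.3 and 14.5 in L191A cells and at 1.03, 0.852 and 1.09 in WT cells. CTGF rose less, to 8.08, 5.27 and 6.01 in L191A cells, against 2.77, 1.88 and 1.93 in WT cells.

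The matrix protein THBS1, the growth factor TGFB2, the membrane repair protein MYOF, FJX1, AJUBA, NUAK2 and IGFBP3 were the other targets called higher. CRIM1 was lower, at 16.1, 53.4 and 55.6 scaled TPM in L191A cells, against 186, 179 and 189.1 in WT cells, and ARHGEF17, DLC1 and LATS2 were lower too. Without L191A replicate 3, and in the fit of the 6 libraries alone, the counts were 11 higher and 2 lower. Leaving out WT replicate 1 or L191A replicate 2 also left 2 lower. The direction of the list's median was kept on TPM as deposited (0.44 with all libraries, 0.72 without replicate 1), after quantile normalization (1.39 and 1.27) and with the length trend removed (0.95 and 0.93).

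Mesenchymal and epithelial genes were called in both directions, to be read against 20.5% higher and 19.5% lower over all genes. Of 15 mesenchymal genes tested, 7 were higher and 2 lower (median log2 difference 0.30 with all libraries and 0.17 without replicate 1, but −0.27 and −0.07 on TPM as deposited). Without L191A replicate 3 and in the fit of the 6 libraries alone, 3 were higher, without WT replicate 2, 4 were, and without L191A replicate 1, 4 were lower. VIM, the intermediate filament vimentin, was at 74.4, 61.2 and 50.4 scaled TPM in L191A cells, against 16.6, 16.8 and 12.5 in WT cells. FN1, fibronectin, was at 4.91, 16.7 and 21 in L191A cells and at 3.58, 2.92 and 3.14 in WT cells. COL1A1, a collagen of fibroblasts, was lower, at 0.327, 0.918 and 0.863 in L191A cells, against 3.03, 3.5 and 3.56 in WT cells. Of 5 basal genes tested, 4 were higher, KRT17, S100A2 and SFN among them, and ITGB4 was lower, while 9 others, KRT5 and TP63 among them, were below the filter. Of 27 epithelial genes tested, 4 were higher, 3 lower and 20 not called, and the list's median was 0.06 with all libraries and 0.10 without replicate 1. ELF3 was at 163.4, 148.5 and 143.9 scaled TPM in L191A cells and at 36.7, 51.5 and 49.3 in WT cells, with 97.7 to 120.2 in empty-vector cells.

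Most genes of S phase and of ribosome biogenesis were higher in L191A cells, to be read against 20.5% higher and 19.5% lower over all genes. Of 40 S-phase genes 34 were higher and none lower, with a median log2 difference of 1.16 with all libraries and 1.00 without replicate 1. MCM4, a subunit of the replicative helicase, was at 77.8, 79.4 and 95.5 scaled TPM in L191A cells, against 39, 35.9 and 33.7 in WT cells and 52.4 to 65.2 in empty-vector cells. UHRF1, which maintains DNA methylation, was at 64.5, 90 and 104.8 in L191A cells and at 36.9, 35.7 and 41.3 in WT cells. Of 32 MYC-linked and ribosome biogenesis genes, 30 were higher (median 1.18 and 1.04), and MRTO4, a ribosome assembly factor, was at 172.3, 88.4 and 105.9 in L191A cells, against 41, 39.4 and 39.7 in WT cells. Of 47 genes of G2 and M phase, 18 were higher and 29 not called, with a median of 0.45 and 0.43. The G2 and M count depended on the libraries kept, at 7 without L191A replicate 3, 10 without L191A replicate 2, 29 without L191A replicate 1, 36 without both skewed libraries (the other is WT sgPOU2F3 replicate 1, described below), 11 without WT replicate 1 and 5 in the fit of the 6 libraries alone. That fit called 19 MYC-linked and 26 S-phase genes higher.

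Beside these, 13 of 26 housekeeping controls were higher, against 20.5% of all genes. Their median log2 difference was 0.82 with all libraries and 0.60 without replicate 1. Of 34 proteasome genes 31 were higher (1.32 and 0.86), and of 39 genes of oxidative phosphorylation 23 (1.27 and 0.68). Of 82 cytosolic ribosomal protein genes 5 were higher and none lower (1.17 and 0.51), a smaller share higher than the 20.5% of all genes. In each of these lists, and in the S-phase, MYC-linked and G2 and M lists, the median was higher with replicate 1 than without it. The gap was widest in the proteasome, oxidative phosphorylation and ribosomal protein lists. PSMA3, a proteasome subunit with a short transcript, was at 2671, 634.2 and 716.2 scaled TPM in L191A cells, against 255.2, 311.3 and 295.8 in WT cells. These counts fell to 6 housekeeping, 18 proteasome, 7 oxidative phosphorylation and 0 ribosomal protein genes without L191A replicate 3, to 8, 28, 13 and 2 without WT replicate 1, and to 3, 12, 3 and 0 in the fit of the 6 libraries alone. Without L191A replicate 2 the ribosomal protein count was 2. On TPM as deposited the medians became 0.41 and 0.69 for S phase, 0.43 and 0.71 for MYC-linked genes, −0.29 and 0.11 for G2 and M phase and 0.06 and 0.27 for the housekeeping controls. After quantile normalization the housekeeping median was −0.07 and 0.15, and that of S phase 0.88 and 0.91. The S-phase and MYC-linked medians thus lay above the housekeeping median under each scaling. With all libraries, the housekeeping median turned negative after quantile normalization and the G2 and M median on TPM as deposited. Without replicate 1 both stayed positive under each scaling. The skew of replicate 1 and the length lean between L191A and WT libraries moved with these lists. Their part in the result was not tested beyond the removal of replicate 1 and of the length trend.

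**Figure D4:**
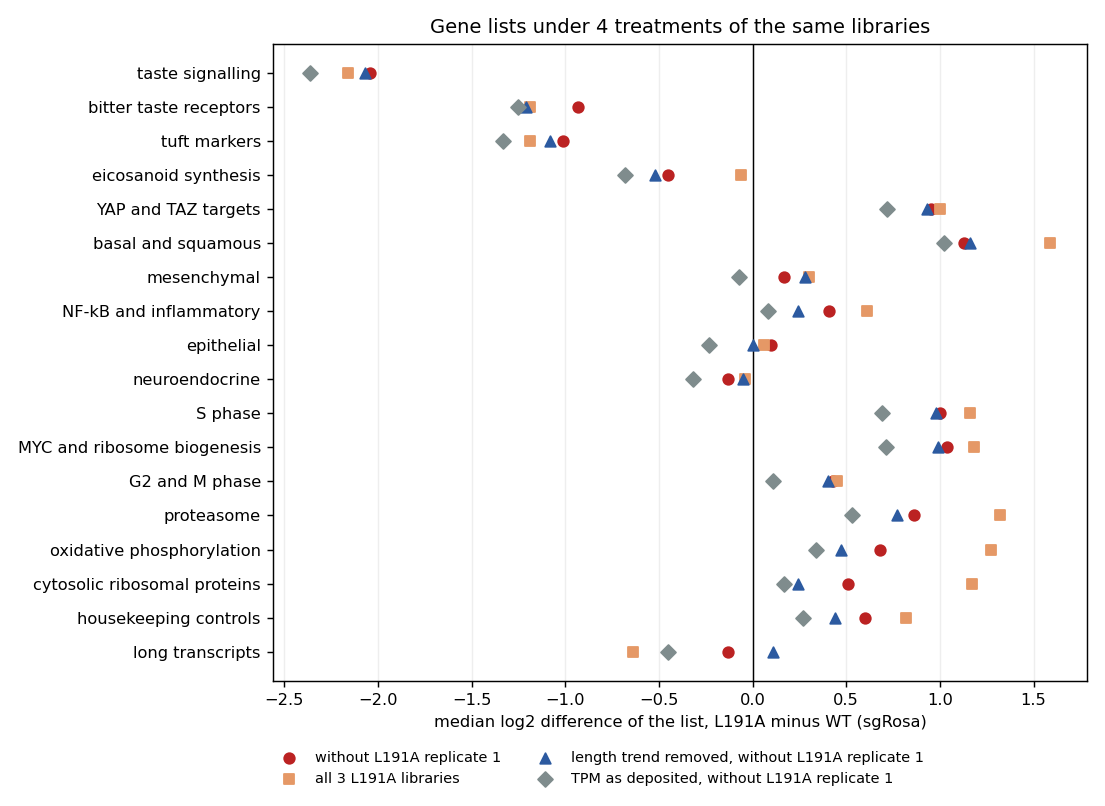
Median log2 difference between L191A and WT cells (x axis, sgRosa) for 18 gene lists (y axis) without L191A replicate 1 (red circles), with all 3 L191A libraries (orange squares), and without replicate 1 after removal of the length trend (blue triangles) or on TPM as deposited (grey diamonds). Taste, bitter receptor and tuft lists lie below 0 and the YAP, basal, S-phase and MYC lists above 0 under all 4, as for taste signalling at −2.04 and −2.16, whereas the mesenchymal, epithelial and long-transcript lists cross 0.

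The remaining lists had few called members or members in both directions, to be read against the 20.5% and 19.5% of all genes called higher and lower. Of 15 NF-kB and inflammatory genes 8 were higher and 3 lower, and the chemokine CXCL1 was at 45.9, 16.1 and 24.7 scaled TPM in L191A cells, against 6.3, 3.67 and 6.1 in WT cells. Of 28 growth factor receptors and ERK feedback genes, 4 were higher and 9 lower. ETV5, an ETS factor induced by ERK, was at 8.13, 8.68 and 7.76 scaled TPM in L191A cells, against 28, 26.9 and 24.6 in WT cells, while FOSL1, an AP-1 subunit, was at 4.7, 5.7 and 7.73 in L191A cells and at 1.62, 1.14 and 0.867 in WT cells. Of 24 apoptosis regulators 10 were higher and 4 lower, and BIK, a pro-apoptotic protein, was at 7.61, 5.9 and 4.56 in L191A cells, against 20.9, 25.6 and 26.3 in WT cells and 61 to 93.3 in empty-vector cells. Without L191A replicate 3, 5 NF-kB genes and 4 apoptosis regulators were higher and 5 genes of the ERK list were lower.

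Of 29 hypoxia and glycolysis genes 10 were higher and 2 lower. Of 25 p53 targets 5 were higher and 5 lower, of 16 interferon genes 4 and 2, of 16 antigen presentation genes 3 and 2, and of 22 cholesterol genes 5 and 2. Without L191A replicate 3 the higher calls were 5 for hypoxia and glycolysis and 3 for cholesterol, and without L191A replicate 1 the lower calls were 6 for interferon, 4 for antigen presentation, 4 for hypoxia and 5 for cholesterol, with 9 higher for cholesterol. Of 23 genes of the integrated stress response and serine synthesis 2 were higher and 1 lower (4 and 3 without L191A replicate 1, 1 higher without any other single library), of 12 Wnt targets 1 and 4, and of 20 Notch genes 2 and 2. The 4 Wnt calls became 2 without L191A replicate 2 or 3, and the 2 lower Notch calls became 5 without L191A replicate 1. TNFRSF19, a Wnt target, was at 0.75, 0.793 and 0.63 scaled TPM in L191A cells, against 6.62, 6.21 and 5.79 in WT cells. IFITM3, an interferon-induced membrane protein, was at 169.4, 96.8 and 116.3 in L191A cells, against 16.2, 22.1 and 24.1 in WT cells. Of 34 long transcripts, a control list for the length lean, none was higher and 3 were lower (median −0.64 with all libraries and −0.13 without replicate 1). Without L191A replicate 1, 5 were higher and 3 lower, and with all libraries none was higher and 9 were lower.

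Markers of the labelled cell type were present in both groups. All 16 tuft markers looked up were in the table, 14 reached a mean of 1 TPM over the 6 libraries, and their summed level was 1638 to 2542 scaled TPM in L191A cells, against 3776 to 4178 in WT cells. This sum includes POU2F3, given above. The longer tuft list, which leaves POU2F3 out, summed to 4565 to 6530 in L191A cells and 6102 to 7364 in WT cells, and these ranges overlap. In bulk RNA, fewer cells of a kind and less RNA per cell cannot be told apart. Neuroendocrine markers summed to 20 to 49.6 scaled TPM in L191A cells and 49.9 to 61.2 in WT cells, with INSM1 and CALCA the 2 of 7 that reached a mean of 1 TPM. On the longer neuroendocrine list 7 of 20 genes were tested, with 2 higher and 2 lower, and NEUROD1, CHGA and SYP were among the genes below the filter. The sum of that longer list went the other way, at 913.6 to 2293 scaled TPM in L191A cells and 594.8 to 725.9 in WT cells. CALCA, a calcitonin-family peptide, was at 40.6, 24.5 and 13.6 in L191A cells and at 51.5, 56.6 and 44.8 in WT cells.

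Fibroblast markers (6) summed to 14.4 to 22.1 scaled TPM in L191A cells and 11.4 to 16.7 in WT cells, and lymphoid or myeloid markers (6) to 6.59 to 11.5 and 11.2 to 14.5, with CD3E at 0 in all 6 libraries. Endothelial markers (3) summed to at most 0.603 in L191A cells and 0.551 in WT cells, and erythroid markers (2) to at most 0.179 in L191A cells and 0 in WT cells, with HBB at 0 throughout. On the longer lists, called higher and lower were 1 and 0 of 1 secretory, 0 and 2 of 9 ciliated, 0 and 2 of 6 alveolar, 0 and 2 of 6 lymphoid and myeloid, 0 and 1 of 1 erythroid, 0 and 0 of 1 endothelial and 2 and 2 of 6 genes tested of the embryonic kidney cells from which lentivirus is usually made. Their part in the results was not tested.

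The same constructs were compared in cells infected with sgPOU2F3, in which the cell's own gene was targeted and no library is shared. WT sgPOU2F3 replicate 1 was skewed like L191A sgRosa replicate 1, with a median gene at 12.76 TPM as deposited and 32.44% of its TPM in ribosomal protein genes. With it, 1300 genes (9.96%) were higher and 1518 (11.6%) lower in L191A than in WT cells, in the fit of all 18 libraries. The calls with sgRosa needed both fits, so the shares called with either guide follow unlike rules. Of the 2680 genes called higher with sgRosa, 582 (21.7% of them, and 44.8% of the 1300) were higher with sgPOU2F3 too and 19 were lower. Of the 2545 called lower, 944 (37.1% of them, and 62.2% of the 1518) were lower with sgPOU2F3 too and 53 were higher. Among genes that changed at least 2-fold with sgRosa, 163 of 429 (38.0%) were also higher and 411 of 633 (64.9%) also lower. The median log2 difference with sgPOU2F3 was 0.47 for the set of 429 and −0.76 for the set of 633. Without both skewed libraries the counts with sgPOU2F3 were 2843 higher (21.8%) and 2924 lower (22.4%), and those with sgRosa 3825 and 3701. Of the 2680 genes called higher with sgRosa, 1417 (52.9%) were then higher with sgPOU2F3 too, and of the 2545 called lower, 1596 (62.7%) were lower too. Taste signalling had medians of −2.04 with sgRosa, without replicate 1, and −2.35 with sgPOU2F3, and YAP and TAZ targets 0.95 and 1.72.

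**Figure D5:**
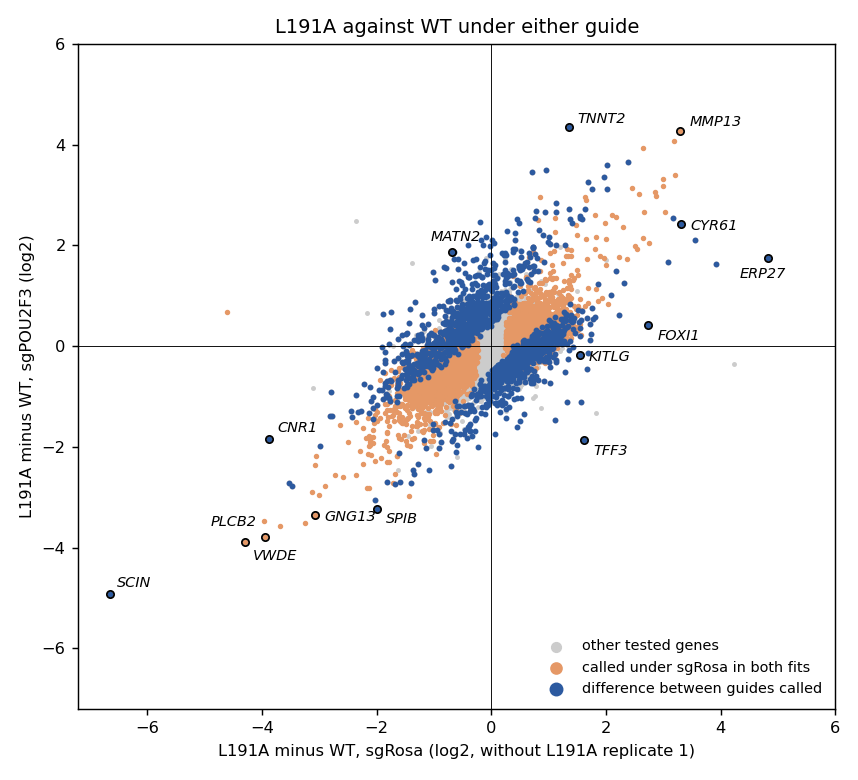
Log2 difference between L191A and WT cells with sgRosa, without L191A replicate 1 (x axis), against that with sgPOU2F3 (y axis), 1 point per tested gene. Orange points were called with sgRosa in both fits and blue points, drawn on top, had a called difference between guides. SCIN, at −6.65 and −4.93, and CYR61, at 3.31 and 2.42, lie on the same side for both guides, while TFF3, at 1.62 and −1.87, and MATN2, at −0.68 and 1.87, do not.

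The difference between L191A and WT cells was itself different with sgRosa and with sgPOU2F3 for 725 genes in the higher direction (5.56%) and 801 in the lower (6.14%), by the limma interaction called in both fits. These counts were fragile. Without WT sgRosa replicate 1 they were 149 and 385, without replicate 2 208 and 426, and without replicate 3 268 and 485. Without L191A sgRosa replicate 2 they were 278 and 509, without replicate 3 306 and 464, and without replicate 1 1189 and 1102. Without both skewed libraries they were 876 and 964.

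FOXI1 had the smallest p of the named genes in the higher direction. With sgRosa it was far higher in L191A than in WT cells, as given above, and with sgPOU2F3 it was at 34.2, 35.5 and 34.6 scaled TPM in L191A cells, against 25.3, 25 and 27.5 in WT cells. The difference of the log2 differences was 2.33 (limma adjusted p = 2.61e-08). KITLG, the ligand of the receptor KIT, was at 23.1, 64.5 and 57.9 with sgRosa in L191A cells, against 19.5, 21.7 and 20.2 in WT cells. With sgPOU2F3 it was at 58.1, 60.4 and 57.4 in L191A cells, against 78.4, 62.7 and 60.1 in WT cells. It was not called there (log2 difference −0.18, limma adjusted p = 0.669, fit of all libraries). The difference between guides was 1.72 (limma adjusted p = 2.45e-06). NOS2, inducible nitric oxide synthase, ALDH2, mitochondrial aldehyde dehydrogenase, and ELOVL6, a fatty acid elongase, had differences of 2.12, 1.93 and 1.62.

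In the lower direction, TNNT2, the cardiac troponin T gene, was at 24.1, 7.44 and 11.3 scaled TPM with sgRosa in L191A cells, against 2.56, 3.88 and 2.65 in WT cells. With sgPOU2F3 it was at 143.8, 149.9 and 147.7 in L191A cells, against 6.6, 6.22 and 6.03 in WT cells, a difference of −2.99 (limma adjusted p = 9.58e-07). MATN2, a matrix protein, was at 8.73, 9.42 and 10.2 with sgRosa in L191A cells, against 16.8, 16.6 and 15.7 in WT cells, and the order was the other way with sgPOU2F3, at 54.6, 54.3 and 54.4 in L191A cells, against 16, 13.2 and 13.5 in WT cells. SDC2, the heparan sulphate proteoglycan syndecan-2, was at 32.9, 24.2 and 22.3 with sgRosa in L191A cells and at 93.3, 91 and 85.6 in WT cells. With sgPOU2F3 SDC2 was at 69.1, 69.1 and 60.8 in L191A cells and at 70.8, 62.4 and 68.8 in WT cells, and these overlap. C11orf53 was lower with sgPOU2F3, at 168.2, 174.5 and 162.6 in L191A cells, against 653.4, 483.1 and 499.5 in WT cells, and its difference between guides was 1.30 (limma adjusted p = 0.000249).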

How the data were processed

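Polyadenylated RNA of NCI-H211 cells was sequenced after TRIzol extraction and TruSeq library preparation, per the labels' protocols. The deposited TPM values were made by the authors with kallisto on hg38, per the submitters' processing notes. No version, transcript set or strand setting is given in the sources used here. TPM sum to the same total in every library, so depth is unknown. Of 19875 entries, 127 named no gene (dates and text fragments, 1.517% to 2.236% of TPM) and were left out. Names, lengths and coordinates came from GENCODE (GRCh38), and 97.9% of tested genes had a transcript length.

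TPM were scaled by the median ratio, and log2(scaled TPM + 1), which understates changes of low genes, was fitted with limma 3.58.1 (R 4.3.3), 1 coefficient per group over all 18 libraries with an intensity trend, two-sided, adjusted over 13050 genes (mean of at least 1 TPM), at an adjusted p of 0.05. The fit was repeated without L191A sgRosa replicate 1.

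Named genes were the octamer family, the 12 largest rises and falls called in both fits without overlap and at 5 scaled TPM or more in the higher group, up to 3 members per list by smallest p, and 5 per direction for the difference between guides. The called members of the tuft, taste, bitter receptor, eicosanoid and YAP lists, and members named to complete a count, were added after their values were seen. A few named genes are not reported here. Members and lists were chosen with earlier results of these data known. Same-numbered L191A and WT libraries deviated from their group means with correlations of −0.322, −0.183 and −0.196. With 3 libraries per group and L191A replicate 1 skewed, this cannot tell whether same-numbered libraries were handled together. The main fits used no pairing. Alternatives were the pseudocount, the filter, scaling, a fit of these 6 libraries alone, the replicate block, array weights, removal of the length trend, and each library left out.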

Additional observations from a re-analysis of the deposited data

Results flagged for a closer look

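Named genes are given here where the difference between L191A and WT cells was not the same with sgRosa and with sgPOU2F3 (limma interaction, adjusted p under 0.05 with and without L191A replicate 1). Values are the log2 difference with sgRosa, without replicate 1, minus that with sgPOU2F3. The counts of such genes moved by over 1.5 times when single libraries were left out, as given in the report.

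Among the largest rises the value was 3.07 for ERP27, 2.28 for MGP, 1.45 for KRT17, 1.42 for SOSTDC1, 0.89 for CYR61 and 0.62 for PCOLCE, all of which were higher in L191A cells with both guides. Among the largest falls it was −2.04 for CNR1, −1.71 for SCIN, −0.81 for RAB27B and −0.70 for CALHM1, all lower with both guides.

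Tuft genes went both ways. The value was 2.44 for BMX, 2.33 for FOXI1, 1.44 for MYB, 1.30 for C11orf53, 1.27 for RGS13, 1.23 for SPIB, 1.17 for AVIL, 1.10 for PLA2G4A, 1.07 for PTGS1 and 1.05 for RGS21. It was −0.83 for GNB3, −0.85 for DCLK1, −0.98 for TRPM4 and −1.10 for TAS2R3. BMX was higher in L191A than in WT cells with sgRosa and lower with sgPOU2F3 (log2 difference −1.11, limma adjusted p = 0.00066, fit of all libraries).

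YAP and TAZ targets had negative values, at −2.43 for CRIM1, −1.47 for AJUBA, −1.37 for NUAK2, −1.27 for MYOF, −1.25 for LATS2 and −0.73 for DLC1, except CYR61, given above.

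The genes with the smallest p were NOS2 at 2.12, ALDH2 at 1.93, KITLG at 1.72 and ELOVL6 at 1.62 beside FOXI1, and TNNT2 at −2.99, MATN2 at −2.55, SDC2 at −1.89, MCAM at −1.78 and PLPP3 at −1.54. MCAM and PLPP3, like MATN2, were lower in L191A than in WT cells with sgRosa and higher with sgPOU2F3.

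Of the genes named from other lists, the value was 3.48 for TFF3, 1.35 for NDUFA4, 1.19 for CD79B, 1.12 for PSMB8, 1.11 for ELF3, 1.06 for IFITM3, 1.05 for MAD2L1, 1.02 for BIK, 0.99 for CXCL1, 0.89 for CD14 and 0.83 for BUB1B. It was −1.24 for OSR1, −1.03 for NBEA, −0.90 for COL1A1, −0.85 for TNFRSF19, −0.65 for NFKB2 and −0.50 for VLDLR.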

How the results depend on the processing

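Counts are of genes called higher and lower in L191A relative to WT cells. On TPM as deposited they were 992 and 6386 with all libraries, 1562 and 4351 without L191A replicate 1, and 870 and 4262 in both fits. For the difference between guides they were 112 and 1172 on TPM as deposited. A fit of the 6 libraries alone gave 1004 and 1569 with all libraries and also 1004 and 1569 in both fits. Without L191A replicate 1 it gave 3852 and 3872. Array weights gave 3977 and 3940 in both fits and 2413 and 2092 for the difference between guides. That difference was also called for 409 and 508 genes under the stricter filter of 5 TPM, and for 1103 and 929 after quantile normalization. With 1 library of either group left out, the counts ranged from 2426 to 3779 higher and 2446 to 3618 lower with all other libraries, from 1779 to 2868 and 1748 to 2629 without L191A replicate 1, from 1516 to 3205 and 1514 to 3072 in both fits, and from 149 to 1189 and 385 to 1102 for the difference between guides. Where L191A replicate 1 and another L191A library are both out, the lone L191A library is assumed to vary like the other groups. With the replicate block, which grouped libraries by replicate number, 2706 genes were higher and 2590 lower in both fits, and 5063 of the 5225 were kept. No L191A library deviated most like the WT library with its own number.

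Of 163 named genes, POU2F1 turned to 0.12 after quantile normalization and 0.09 with the length trend removed, VLDLR to −0.05 on TPM as deposited and PTGES3 to −0.13 after quantile normalization, and the cause was not tested. No call was lost with a pseudocount of 5, and 47 were lost in the fit of the 6 libraries alone. Depth is unknown, so no detection limit could be set, and values under 1 scaled TPM rest on few reads at best.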
